A study of Homo sapiens with 27 samples.

Results

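Desmosome components were followed as 10 genes of the 57165 in the deposited gene table: the desmosomal cadherins DSG2, DSG3, DSC2 and DSC3, the armadillo proteins JUP, PKP1, PKP2 and PKP3, the plakin DSP, and PERP. They were chosen by name, with no measured value in the rule, but with earlier results of these data known. The study had already named DSP and DSC2 among the genes upregulated in this RNA-seq, so counts of called members are not independent of the data. All 10 were present in the table, 8 passed the filter on low counts in SUM159 (all but DSG3 and PKP1) and 7 passed it in MDA-MB-231 (all but DSC3, DSG3 and PKP1). A gene that passes only because it is high in 1 group had to differ, so counts over the tested members are descriptions of those members and not of all 10.

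Desmosomes are button-like junctions that rivet neighbouring epithelial cells together and anchor their keratin filaments. Desmogleins and desmocollins are the adhesive cadherins that span the membrane, plakoglobin (JUP) and the plakophilins (PKP1 to PKP3) bind their tails inside the cell, and desmoplakin (DSP) links this plaque to keratins. In breast, as in other glands, simple epithelium relies mainly on DSG2 and DSC2, whereas DSG3, DSC3 and PKP1 are best known from basal and stratified epithelia, and desmosomes are typically lost when carcinoma cells turn mesenchymal under repressors such as ZEB1.

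RNA was sequenced from SUM159 and MDA-MB-231, established triple negative breast cancer lines of mesenchymal, claudin-low character, in 9 groups of 3 libraries. Untransduced wild type cells were compared with puromycin-selected cells carrying pLV dCas9-KRAB, a lentiviral vector in which the hUbC promoter drives a catalytically dead Cas9 fused to the KRAB repressor domain, either without a guide (No gRNA) or with guides, driven by a U6 promoter, against the ZEB1 promoter. In SUM159 the guides were gRNA 4 alone or the pool of 4 (All gRNA). In MDA-MB-231 the sample titles and the table's column names disagree on which targeted group holds gRNA 4 and which the pool, so these groups are called set 1 (titled gRNA 4) and set 2 (titled all 4 gRNAs), and nothing here rests on which is which. The No gRNA cells share the vector, the KRAB fusion and the puromycin selection with the targeted cells, while wild type cells have none of them. The study describes its replicates as individual clones, so a difference between groups of 3 clones also holds the spread between clones. The titles name run 2 only for a second set of SUM159 wild type libraries. Their column names share a prefix (B2) with the 4 MDA-MB-231 groups, while the 4 SUM159 groups carry another (B1). The prefixes are read here as run 2 and run 1, though no label says that they mark sequencing runs. On this reading, line and run cannot be told apart for all transduced cells.

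Library totals ranged from 15461200 to 21473757 estimated counts and 19239 to 23301 genes had at least 1 count. In MDA-MB-231 the number of such genes was highest in No gRNA libraries, at 22914 to 23301. It was 20300 to 20583 in wild type, 22089 to 22447 in set 1 and 21468 to 21863 in set 2. Each library correlated with the others of its group at 0.981 or more (log2 scale, across genes). In CPM, counts scaled to the size of the library, the SUM159 libraries held ZEB1 at 70.7, 77.3 and 73.3 without a guide, 4.56, 3.25 and 2.57 under gRNA 4 and 0.811, 0.375 and 1.02 under All gRNA. The MDA-MB-231 No gRNA libraries held it at 104, 122 and 104 CPM, those of set 1 at 4.75, 5.51 and 5.74 and those of set 2 at 4.93, 3.7 and 5.43, so the targeted gene was low in all 12 targeted libraries. Markers of the HEK293T packaging cells (LIN28B, NEFM, NEFL) stayed at or under 3 counts in all 27 libraries. The luminal list (GATA3, FOXA1, TFF1, KRT19) summed to 165 to 181 CPM in MDA-MB-231 No gRNA libraries, 263 to 279 in set 1 and 310 to 318 in set 2, with TFF1 at or under 3 counts everywhere, and to 5.32 to 10.6 CPM in the transduced SUM159 libraries. The basal list (TP63, KRT5, KRT14, KRT15) summed to 125 to 130 CPM in SUM159 No gRNA, 205 to 215 with gRNA 4, 172 to 192 with All gRNA, and at most 17.1 in any MDA-MB-231 library. In SUM159 wild type this list summed to 253 to 268 CPM in run 1, above every targeted library, and to 33.9 to 37.4 in run 2. Whether a shift in such cells had a part in the results below was not tested, and in bulk RNA fewer cells of a type and less RNA per cell cannot be told apart.

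Levels below are CPM on a single scale over the 27 libraries. Fold changes come from limma (voom) fits within the 12 libraries of a line, given as log2 values with their standard error. A gene is called by TREAT when its fold change exceeds 2 with an adjusted p under 0.05, and by the moderated test when it differs from 0 with an adjusted p under 0.05. "Rose" and "fell" are used for moderated calls.

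The promoters of the members hold the E-box CACCTG, which reads CAGGTG on the opposite strand and is a motif ZEB1 is known to bind, in 4 of the 10 windows, and 4 of the 8 members, found in the RefSeq table of promoter windows (250 bases before to 50 after the start, GRCh38.p14). PKP2 and PKP3 have no window in it. Of all 35116 windows, 20.6% hold at least 1 such letter string on either strand, and a match is a description of these letters and not of binding. The matches lie in DSC2, DSG2, DSP and JUP, and are printed to show where the motif stands. All 7 tested members rose in MDA-MB-231. Of the members with a window and no match, only PERP was tested there, and it rose in all 4 comparisons with No gRNA. Whether the motif has a part in any change was not tested. Each line gives 30 bases 5′ to 3′ on the strand of the gene, with the E-box in capitals.
DSP at -178 (chr6:7541481-7541510, plus strand): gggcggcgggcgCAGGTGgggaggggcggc
DSP at -85 (chr6:7541574-7541603, plus strand): gaagaaaccggcCAGGTGtggcctaggcgc
DSG2 at -232 (chr18:31497933-31497962, plus strand): acgtcacggtccCAGGTGcgagtgcgagcg
DSG2 at -116 (chr18:31498049-31498078, plus strand): tcgcggcggccaCACCTGgagccgcgcctt
DSC2 at -156 (chr18:31102560-31102589, minus strand): tcaactttctgtCAGGTGggcctcaggcag
JUP at -54 (chr17:41786013-41786042, minus strand): cgactctggcccCACCTGccgagcaggtga
JUP at -43 (chr17:41786002-41786031, minus strand): ccacctgccgagCAGGTGagcgcacggagt
Positions count the first base of the motif back from the start, -1 being the base before it. In GENCODE v44 the matches at DSC2 and DSG2 lie upstream of the gene, and those at DSP and JUP lie inside an annotated exon, since these gene models start farther upstream. The windows of DSC3, DSG3, PKP1 and PERP hold no E-box, and DSC2 and JUP each have a further window without a match. At DSC2 the match lies in the window of the canonical transcript's start. At JUP the window of the canonical start (chr17:41786711) holds no match, and the printed motifs precede another start that lies downstream of it. The motifs at JUP are 11 bases apart, so their printed stretches overlap.

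The main question was how desmosome genes differ between ZEB1-targeted and No gRNA cells. In SUM159 DSP, PKP3, JUP and PERP rose under both guide conditions, while PKP2 and the cadherins DSG2, DSC2 and DSC3 did not pass the test. In MDA-MB-231 all 7 tested members, cadherins included, rose in both sets. No member fell in any of the 4 comparisons. By TREAT, DSP was called in all 4, PKP3 and DSC2 in both MDA-MB-231 sets, and DSG2 in set 1.

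With All gRNA, TREAT called 1 of 8 tested members higher and 0 lower, against 0.33% and 0.066% of the 15147 genes tested, and the moderated test called 4 higher and 0 lower, against 5.93% and 4.89%. With gRNA 4 the counts were 1 and 0 by TREAT, against 0.297% and 0.0924%, and 4 and 0 by the moderated test, against 6.11% and 4.91%. In set 1, TREAT called 4 of 7 higher and 0 lower, against 1.1% and 0.369% of 15721 genes, and the moderated test 7 and 0, against 20.4% and 17.3%. In set 2 these were 3 and 0 by TREAT, against 1.74% and 2.4%, and 7 and 0 by the moderated test, against 27.3% and 25.1%. The median log2 fold change of the tested members was 0.51, 0.55, 1.25 and 1.2 in that order, where the median over all genes tested lay within 0.012 of 0. The 4 comparisons are not independent, since both of a line use the same No gRNA libraries. Scaling by library totals instead of TMM factors moved the share of higher calls among all moderated calls from 54.8% to 43.0% with All gRNA, from 55.5% to 43.6% with gRNA 4 and from 54.1% to 40.8% in set 1 (42.7% with upper quartile scaling), with the member calls of these 3 comparisons kept. In set 2 it moved from 52.1% to 46.0%, and to 42.8% with upper quartile scaling, under which PERP was no longer called.

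**Figure D1:**
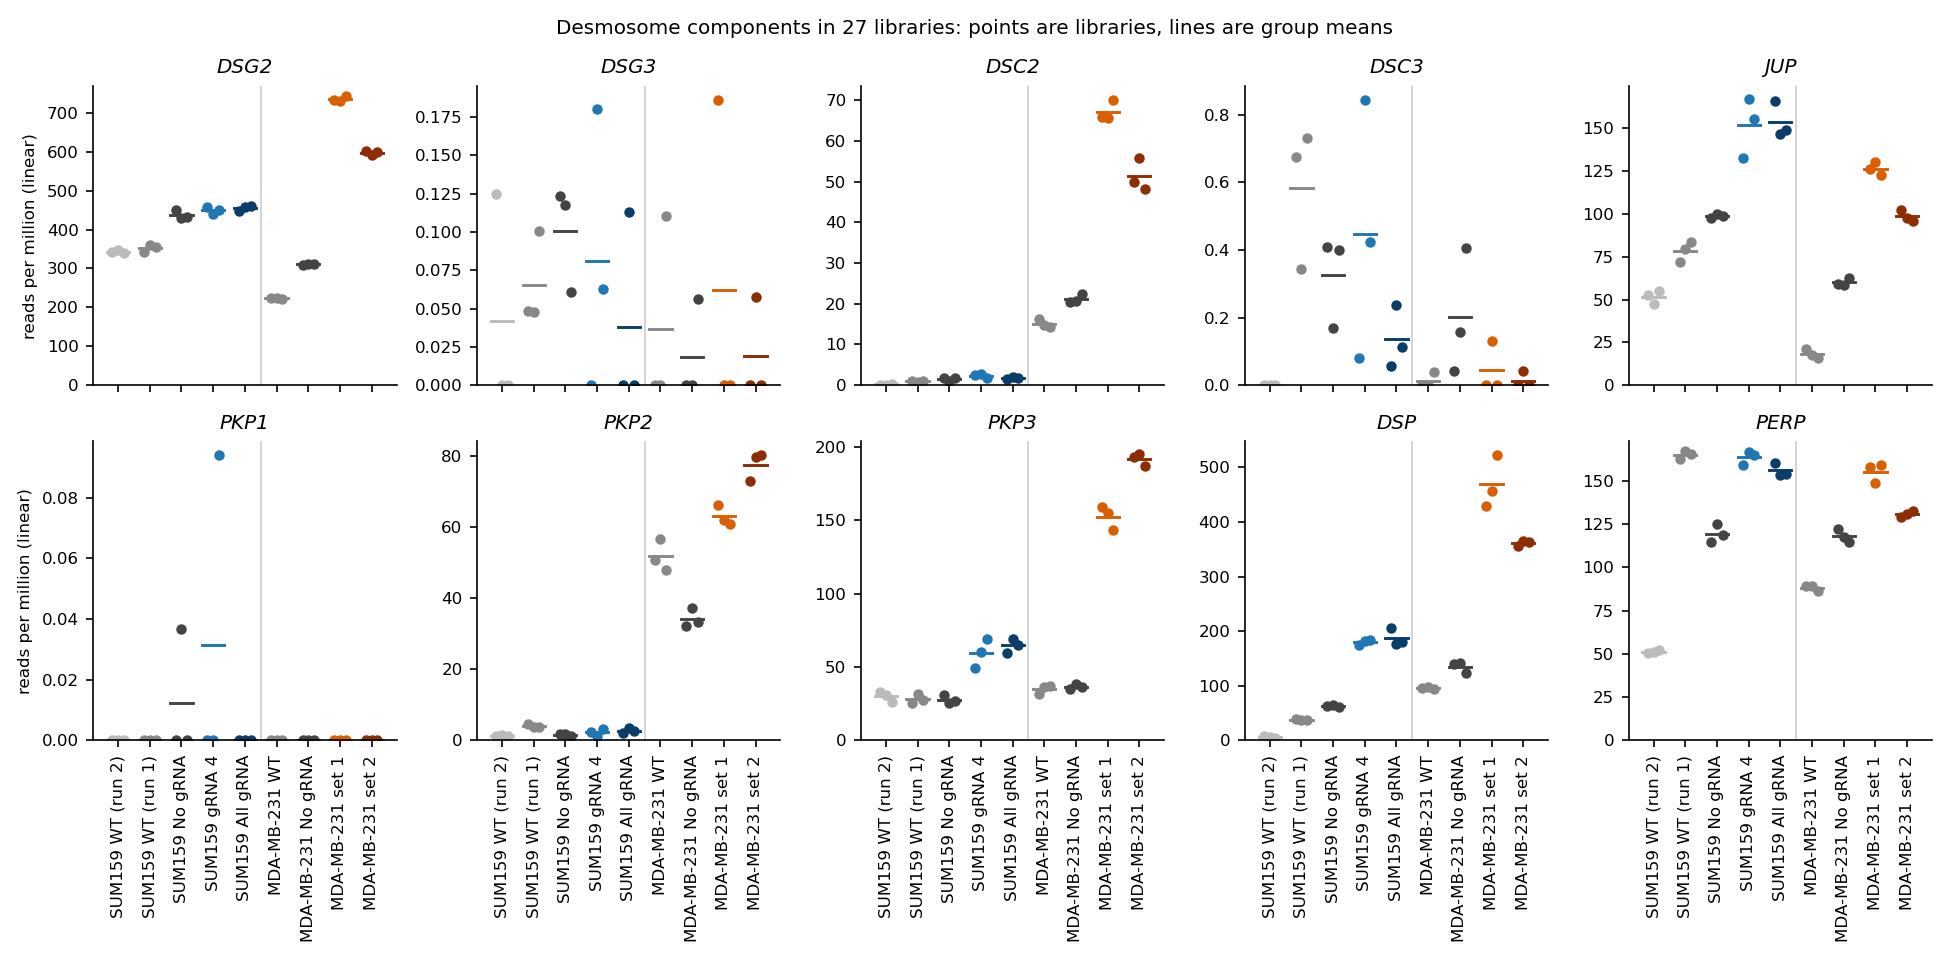
CPM (linear axis, own scale per gene) of the 10 desmosome components in 9 groups; points are libraries and short lines group means, and the vertical line separates SUM159 from MDA-MB-231. All 6 targeted libraries of each line lie above every No gRNA library of that line for DSP, PKP3, JUP and PERP, while DSG3 and PKP1 stay under 0.19 CPM throughout.

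DSG2 (chr18:31498177-31549008, plus strand), the desmoglein of simple epithelia, was by far the most abundant desmosomal cadherin in both lines. In SUM159 it read 450.4, 431 and 431 CPM without a guide, 457, 441 and 449.8 under gRNA 4 and 447, 457 and 459.7 under All gRNA, and the groups overlapped. Its log2 fold changes of 0.055 ± 0.037 (95% interval -0.025 to 0.13, adjusted p = 0.394) and 0.029 ± 0.037 (interval -0.052 to 0.11, adjusted p = 0.686) were both within the spread between libraries. In MDA-MB-231 it read 308, 312 and 311 CPM in No gRNA libraries, 732, 729.9 and 743 in those of set 1 and 601, 593 and 599 in those of set 2. The 3 groups were fully separated, with set 1 highest. DSG2 rose by 1.25 ± 0.022 in set 1 (TREAT adjusted p = 3.51e-05) and by 0.97 ± 0.023 in set 2 (moderated adjusted p = 5.35e-11), which is 2.37-fold and 1.96-fold. MDA-MB-231 No gRNA cells held less DSG2 than SUM159 No gRNA cells, and targeted MDA-MB-231 cells more than targeted SUM159 cells, across different runs.

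DSC2 (chr18:31058840-31102522, minus strand), the desmocollin of simple epithelia, was the cadherin in which the lines differed most in level. SUM159 libraries held 1.7, 0.993 and 1.67 CPM without a guide, 2.57, 2.66 and 1.83 under gRNA 4 and 1.55, 2.07 and 1.86 under All gRNA, from 16.6 to 45.2 counts each. The gRNA 4 libraries did not overlap No gRNA, whereas those with All gRNA did, and neither difference passed (0.69 ± 0.25, adjusted p = 0.109, and 0.34 ± 0.26, adjusted p = 0.456). In a fit over all 27 libraries the gRNA 4 difference was 0.70 with an adjusted p just under 0.05, and passed. MDA-MB-231 libraries held 20.5, 20.7 and 22.4 CPM in No gRNA libraries, 65.8, 65.6 and 70.0 in those of set 1 and 50.0, 55.8 and 48.3 in those of set 2, and the 3 groups did not overlap. DSC2 rose by 1.66 ± 0.079 in set 1 (TREAT adjusted p = 0.000299) and by 1.30 ± 0.081 in set 2 (TREAT adjusted p = 0.0441). The TREAT call in set 2 was lost in 5 of the 6 fits that left out 1 library (all but the one without set 2 replicate 3) and under 7 of 13 other settings, while its moderated call was kept in all of them.

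DSC3 and DSG3, the desmocollin and desmoglein of basal cells, were close to silent. DSC3 (chr18:30989365-31042815, minus strand) reached at most 14.3 counts in a SUM159 library and 7.33 in an MDA-MB-231 library. Its SUM159 values were 0.675, 0.344 and 0.731 CPM in wild type, 0.409, 0.168 and 0.401 in No gRNA, 0.0802, 0.844 and 0.423 with gRNA 4 and 0.0561, 0.237 and 0.114 with All gRNA. These values overlap between No gRNA and both targeted groups, and no difference was detectable at this depth (adjusted p = 0.981 and 0.412). DSG3 (chr18:31447741-31478702, plus strand) had at most 3.05 counts in any library and none in 13 of 27. PKP1 (chr1:201283452-201332993, plus strand), the plakophilin of stratified epithelium, had no count in 25 of 27 libraries and at most 1.60 in the other two. A count of 0 allows up to 3 counts in a library, for counting error only.

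The desmocollin and desmoglein genes are neighbours on chromosome 18, in a stretch of 560 kb (GRCh38, GENCODE v44) that holds 13 annotated genes of the table, 7 of them family members. DSC3 lies at one end, at trace level, with DSC2 beside it, and DSG2 lies at the other end. The genes between them, DSC1, DSG1, DSG4 and DSG3, never exceeded 3.59 counts in a library in any of the 9 groups, ZEB1-targeted ones included. DSCAS, an antisense RNA that overlaps DSC2, had no count. DSG2-AS1 had at most 8.25 counts against at least 3690 for DSG2, so reads shared with it could shift DSG2 only slightly, and whether the counting used strand is not given in the sources used here.

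**Figure D2:**
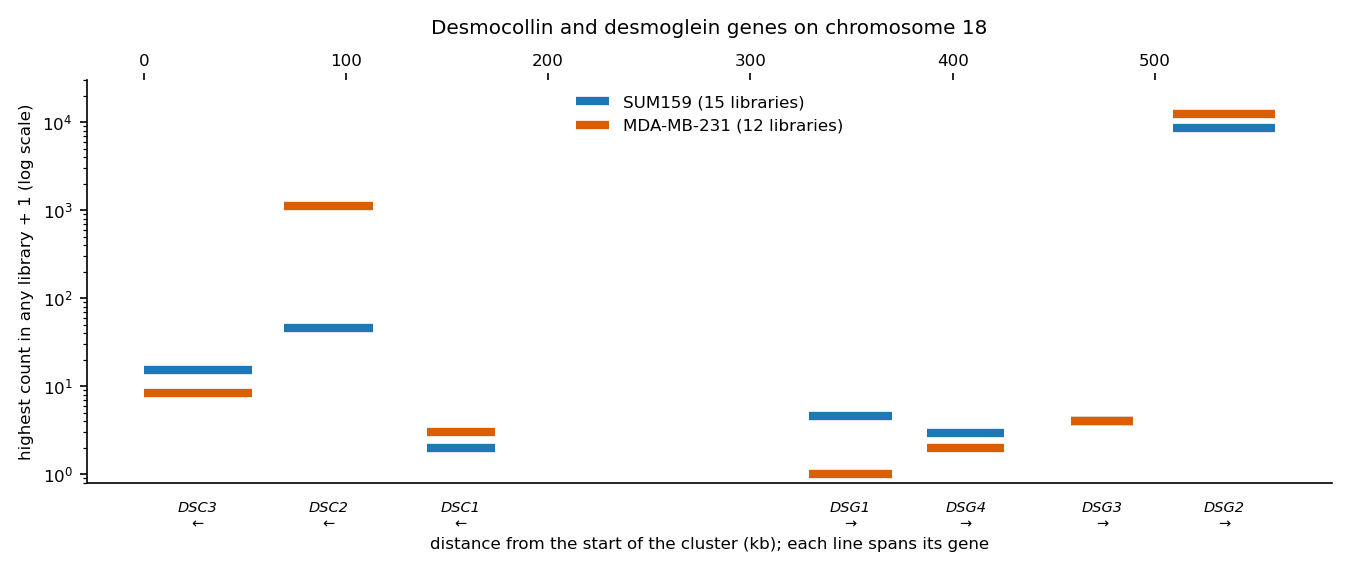
Highest count in any library plus 1 (log axis) for the 7 desmocollin and desmoglein genes, drawn over their extent in kb from the start of the cluster, in SUM159 and MDA-MB-231; arrows give the direction of transcription. DSG2 reached 8508 counts in SUM159 and 12306 in MDA-MB-231, DSC2 45.2 and 1106, and the lines of DSG3 coincide at about 3 counts.

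Levels per kilobase of the annotated canonical transcript compare genes only roughly, since they depend on the length chosen. On this scale DSG2 stood at 76.8 ± 1.97 CPM per kb in SUM159 No gRNA cells (SD, n = 3, here and below) and DSC2 at 0.118 ± 0.0325. In MDA-MB-231 No gRNA cells these were 54.5 ± 0.324 and 1.72 ± 0.0866. The desmoglein-to-desmocollin ratio of these levels was thus 690 in SUM159 (range 558 to 939) and 31.7 in MDA-MB-231 (30.01 to 32.6). It was lower, at 23.7 in set 1 (23.0 to 24.1) and 25.3 in set 2 (23.0 to 26.8), with no overlap with No gRNA. In SUM159 it was 425 with gRNA 4 (358 to 533), below No gRNA without overlap, and 546 with All gRNA (478 to 625), which overlapped No gRNA. It was 799 in SUM159 wild type of run 1 and 4364 in run 2, where DSC2 had only 8 counts in all. Using the union of all exons as the length instead puts DSG2 in MDA-MB-231 No gRNA cells at 32.7 and DSC2 at 1.7 CPM per kb. In SUM159 No gRNA cells it puts them at 46.1 and 0.116. This leaves the order of the 2 genes as it was but lowers the ratio.

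JUP (chr17:41754604-41786931, minus strand) encodes plakoglobin, an armadillo protein shared by desmosomes and adherens junctions. In SUM159 it read 97.4, 100.2 and 99 CPM without a guide, 133, 167 and 155 under gRNA 4 and 166, 147 and 149 under All gRNA. Both targeted groups lay wholly above No gRNA and overlapped each other. JUP rose by 0.60 ± 0.088 with gRNA 4 (moderated adjusted p = 0.000876) and 0.64 ± 0.087 with All gRNA (adjusted p = 0.000673). In MDA-MB-231 it read 59.3, 58.4 and 62.6 CPM in No gRNA libraries, 126, 131 and 123 in those of set 1 and 102, 97.8 and 95.9 in those of set 2, again without overlap. The rise was 1.08 ± 0.063 in set 1 (adjusted p = 1.94e-07) and 0.74 ± 0.065 in set 2 (adjusted p = 2.36e-06), and no change of JUP passed TREAT.

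The plakophilins bind cadherin tails and desmoplakin and help to cluster them. PKP3 (chr11:392614-404908, plus strand), which is found in most epithelia, read 30.7, 25.8 and 26.8 CPM in SUM159 No gRNA, 49.4, 60.1 and 69.3 with gRNA 4 and 59.5, 69.4 and 65.3 with All gRNA. It rose by 1.08 ± 0.13 (adjusted p = 0.000286) and 1.22 ± 0.13 (adjusted p = 0.000101), a little over 2-fold, with every targeted library above every No gRNA library. In MDA-MB-231 it had the largest fold change of the 7 tested members: 34.7, 38.2 and 36 CPM in No gRNA against 159, 155 and 143 in set 1 and 193, 196 and 187 in set 2. These are log2 differences of 2.07 ± 0.069 (TREAT adjusted p = 1.95e-06) and 2.43 ± 0.068 (TREAT adjusted p = 6.86e-08), that is 4.21-fold and 5.37-fold. The No gRNA and wild type levels of PKP3 were between 25.3 and 38.2 CPM in both lines and both runs.

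PKP2 (chr12:32790745-32896798, minus strand), the plakophilin of simple epithelium and heart, differed strongly between the lines. SUM159 libraries held 1.73, 1.77 and 1.16 CPM without a guide, 2.47, 1.29 and 3.18 under gRNA 4 and 2.16, 3.39 and 2.7 under All gRNA. The All gRNA group lay above No gRNA without overlap and the gRNA 4 group did not, and neither difference passed (All gRNA 0.82 ± 0.33, adjusted p = 0.15; gRNA 4 0.50 ± 0.35, adjusted p = 0.421). MDA-MB-231 libraries held 32.2, 37.2 and 33.2 CPM in No gRNA libraries, 66.2, 61.8 and 60.6 in those of set 1 and 72.9, 79.5 and 80.1 in those of set 2. PKP2 rose by 0.89 ± 0.086 in set 1 (adjusted p = 1.17e-05) and by 1.2 ± 0.083 in set 2 (adjusted p = 3.31e-07), without passing TREAT. A lncRNA on the same strand inside PKP2 had at most 15.01 counts, which is small beside PKP2 in MDA-MB-231 but not beside its 20.6 to 60.2 counts in the transduced SUM159 libraries, where the value is uncertain.

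The make-up of the plakophilins differed between lines and shifted in MDA-MB-231. Per kilobase, PKP3 supplied 96.4% of the summed PKP1, PKP2 and PKP3 level in SUM159 No gRNA cells (range 95.6% to 97.2%), 97.4% under gRNA 4 and 97.3% under All gRNA. In MDA-MB-231 No gRNA cells it supplied 61.5% (60.7% to 62.0%), 78.4% (78.0% to 79.0%) in set 1 and 78.8% (77.8% to 79.9%) in set 2. The summed level itself went from 21.0 ± 1.25 CPM per kb in No gRNA cells to 69.0 ± 3.54 in those of set 1 and 86.5 ± 1.52 in those of set 2. PKP2 has a long union of exons relative to its canonical transcript, and with union lengths its MDA-MB-231 No gRNA level is 3.32 against 9.57 CPM per kb for PKP3.

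DSP (chr6:7541338-7586714, plus strand) encodes desmoplakin, the plakin that ties the plaque to keratin filaments, and it was the member that passed TREAT in all 4 comparisons. In SUM159 it read 62.5, 64.7 and 61.8 CPM without a guide, 175, 182 and 185 under gRNA 4 and 206, 177 and 179.7 under All gRNA. Every targeted library lay far above the No gRNA libraries, and the targeted groups overlapped each other. The log2 fold changes were 1.51 ± 0.07 (TREAT adjusted p = 0.0026) and 1.57 ± 0.069 (TREAT adjusted p = 0.00143), 2.84-fold and 2.97-fold. In MDA-MB-231 it read 139, 142 and 123 CPM in No gRNA libraries, 429, 457 and 522 in those of set 1 and 357, 365 and 363 in those of set 2. The rises were 1.80 ± 0.078 (TREAT adjusted p = 6.39e-05) and 1.45 ± 0.081 (TREAT adjusted p = 0.00348). SUM159 with either guide condition thus exceeded MDA-MB-231 No gRNA in DSP level, and these values come from different runs. DSP-AS1, an antisense RNA overlapping DSP, had at most 41.0 counts.

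Relative to DSG2, DSP per length stood at 0.0847 ± 0.00343 in SUM159 No gRNA and at 0.236 ± 0.0101 under gRNA 4 and 0.243 ± 0.0248 under All gRNA. In MDA-MB-231 the ratio was 0.255 ± 0.0193 in No gRNA cells, 0.375 ± 0.0349 in those of set 1 and 0.356 ± 0.00688 in those of set 2. The targeted libraries of each line lay above its No gRNA libraries without overlap. Among 13774 genes tested in both lines, those whose log2 CPM followed DSP most closely over the 27 libraries were SOCS3 (Pearson r = 0.96), B4GALNT3 (0.95), C16orf74 (0.95), TC2N (0.95) and TMEM87B (0.94). These values rest on 9 groups in 2 lines and share their libraries, so they describe a pattern and carry no test.

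**Figure D3:**
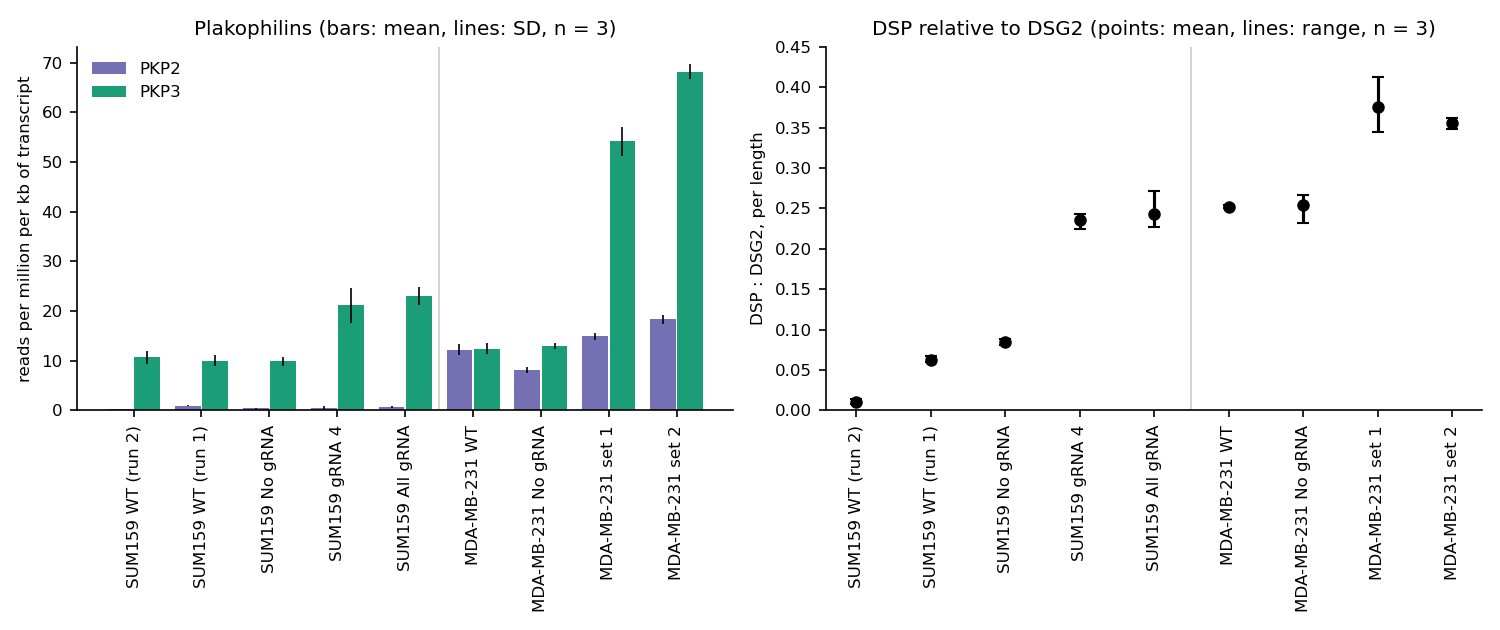
Left, PKP2 and PKP3 in CPM per kb of canonical transcript (bars from 0, mean and SD of 3 libraries) in 9 groups; right, the ratio of DSP to DSG2 per length (mean and range of 3 libraries). PKP2 and PKP3 are near equal in MDA-MB-231 wild type, PKP3 leads in the other groups, and the ratio of DSP to DSG2 lies higher in targeted than in No gRNA libraries of each line.

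PERP (chr6:138088505-138107419, minus strand), a tetraspan membrane protein of desmosomes and a p53 target, was abundant in every group and moved least of the genes that rose. In SUM159 it read 114, 125 and 118 CPM without a guide, 159, 167 and 165 under gRNA 4 and 160.4, 153 and 154 under All gRNA, without overlap of targeted and No gRNA libraries. The rises of 0.45 ± 0.048 (adjusted p = 8.95e-05) and 0.39 ± 0.048 (adjusted p = 0.000293) left it level with run 1 wild type, at 163, 167 and 165 CPM. Against wild type the same targeted groups differed by -0.029 (adjusted p = 0.634) and -0.089 (adjusted p = 0.122), so the rise holds against No gRNA cells and not against wild type. In MDA-MB-231 it read 122, 118 and 114 CPM in No gRNA libraries, 158, 149 and 159 in those of set 1 and 129, 131 and 133 in those of set 2. It rose by 0.40 ± 0.042 (adjusted p = 2.24e-05) and 0.17 ± 0.043 (adjusted p = 0.00541), and the smaller rise in set 2 did not pass with upper quartile scaling (0.079, adjusted p = 0.142).

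**Figure D4:**
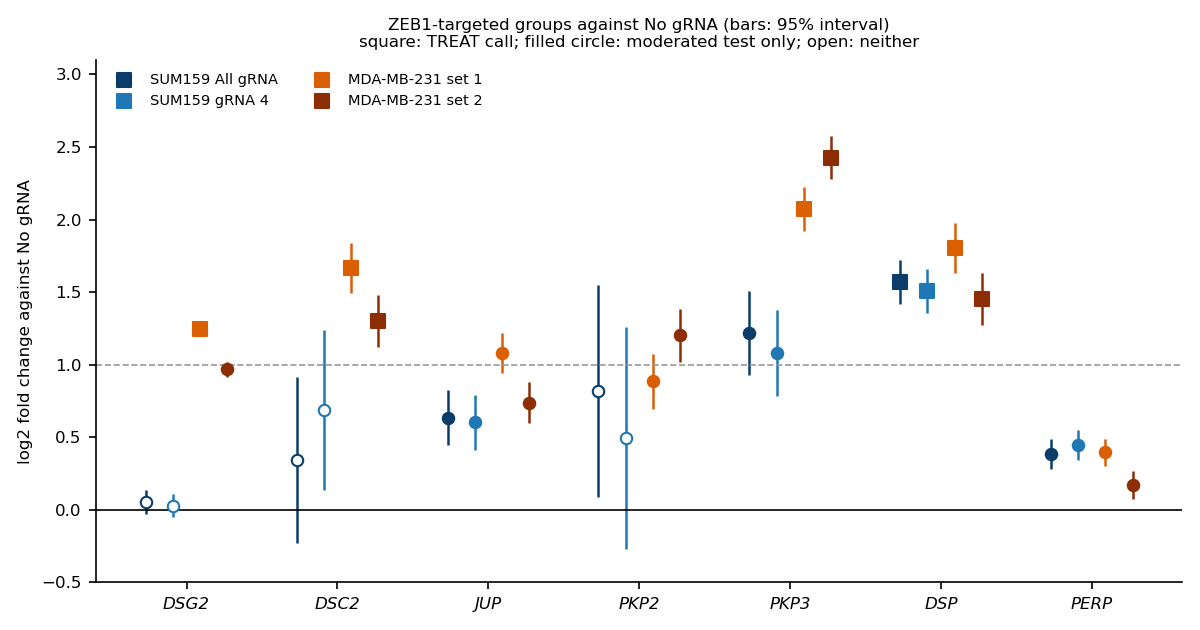
Log2 fold change against No gRNA, with 95% intervals, of the 7 members tested in both lines; squares passed TREAT, filled circles the moderated test only, open circles neither, and the dashed line marks 2-fold. DSP is called by TREAT in all 4 groups, and DSG2 lies at 0.055 and 0.029 in SUM159 but at 1.25 and 0.97 in MDA-MB-231.

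The No gRNA vector control itself differed from wild type. In SUM159 the moderated test called 3 of 8 members higher and 2 lower in No gRNA cells, against 21% and 21.9% of genes tested. DSP was 39.1, 36.6 and 37.3 CPM in wild type and higher by 0.73 ± 0.083 in No gRNA (adjusted p = 2.95e-05), DSG2 was 343, 359.8 and 355 and higher by 0.30 ± 0.037 (adjusted p = 5.51e-05), and JUP was 71.8, 79.6 and 83.8 and higher by 0.33 ± 0.093 (adjusted p = 0.0135, or 0.0654 without wild type replicate 1). PKP2 fell from 4.62, 3.61 and 3.74 CPM by 2.6-fold (log2 -1.38 ± 0.31, adjusted p = 0.00414), and PERP changed by -0.48 ± 0.047 (adjusted p = 1.09e-05). In MDA-MB-231 the counts were 5 of 7 higher and 1 lower, against 26.2% and 27.6%. JUP moved most, from 21.2, 17.7 and 15.9 CPM in wild type to a level 3.2-fold higher in No gRNA (log2 1.68 ± 0.091, TREAT adjusted p = 0.00046).

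The other rises in MDA-MB-231 No gRNA cells were smaller and alike in size. DSC2 stood at 16.2, 14.9 and 14.3 CPM in wild type and rose by 0.44 ± 0.099, DSP at 95.6, 97.6 and 94.8 and rose by 0.43 ± 0.099. DSG2 stood at 224, 225 and 222 CPM and rose by 0.42 ± 0.027, PERP at 88.9, 88.9 and 86.3 and rose by 0.37 ± 0.046. Their moderated adjusted p lay between 1.53e-07 and 0.00326, and no wild type library overlapped No gRNA. PKP2 again went the other way, from 50.7, 56.6 and 47.8 CPM in wild type, by -0.65 ± 0.088 (adjusted p = 7.35e-05). PKP3 was at 31.6, 36.4 and 36.9 CPM in wild type and differed by 0.0011 ± 0.084 (interval -0.18 to 0.19), and in SUM159 by -0.024 ± 0.14 (interval -0.34 to 0.29). PKP3 is thus the member whose rise in targeted cells was nearly the same against either control: 1.06, 1.2, 2.08 and 2.43 against wild type, for gRNA 4, All gRNA, set 1 and set 2.

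Against wild type, SUM159 targeted cells also differed in members that had not passed against No gRNA. DSG2 was higher by 0.33 with gRNA 4 and 0.36 with All gRNA (adjusted p = 2.14e-05 and 1.09e-05), and DSC2 by 1.24 and 0.89 (adjusted p = 0.00257 and 0.0181). SUM159 No gRNA cells were themselves above wild type in DSG2, by 0.30. PKP2 had the opposite sign to its difference from No gRNA, at -0.88 with gRNA 4 (adjusted p = 0.025) and -0.56 with All gRNA (adjusted p = 0.107). DSC3, at trace counts, differed from wild type by -1.99 with All gRNA (adjusted p = 0.0499, which passed) and by -0.75 with gRNA 4 (adjusted p = 0.37). DSP kept its rise, at 2.24 and 2.30. In MDA-MB-231 all 7 members were higher than wild type in both sets, from 0.24 for PKP2 in set 1 to 2.76 for JUP in set 1. Over all genes, the moderated test against wild type called 7384 of 15147 with All gRNA and 7096 with gRNA 4. It called 9348 of 15721 in set 1 and 5709 in set 2. Of these calls 50.1%, 49.6%, 49.8% and 49.1% were higher.

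Guide conditions were compared next. In SUM159, All gRNA and gRNA 4 did not differ in any of the 8 tested members by limma's moderated test, against 0.561% higher and 0.383% lower of all genes, and 0 members passed an unadjusted p of 0.05 or DESeq2's test. The intervals allow differences of -0.068 to 0.19 for DSP, -0.054 to 0.11 for DSG2, -0.15 to 0.21 for JUP, -0.12 to 0.40 for PKP3 and -0.16 to 0.04 for PERP, and wider ones for DSC2 and PKP2. ZEB1 itself was lower with All gRNA than with gRNA 4 by 4.75-fold (log2 -2.25 ± 0.37, adjusted p = 0.0165).

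In MDA-MB-231 the sets differed in all 7 tested members, 5 higher in set 1 and 2 lower, against 26.3% and 25.2% of genes. DSC2, DSP, JUP, DSG2 and PERP were higher in set 1 by 0.37 ± 0.066, 0.35 ± 0.064, 0.34 ± 0.057, 0.28 ± 0.02 and 0.22 ± 0.042 (adjusted p between 3.81e-07 and 0.000804). The plakophilins went the other way, PKP3 by -0.35 ± 0.049 (adjusted p = 0.000102) and PKP2 by -0.32 ± 0.075 (adjusted p = 0.00389). The largest of these differences was 1.29-fold, none passed TREAT, and ZEB1 did not differ detectably between the sets (0.18 ± 0.23, adjusted p = 0.528).

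Wild type cells of the lines were compared in run 2, which holds both. The moderated test called 2 of 8 members higher in SUM159 and 4 lower, against 34.7% and 36.5% of the 17319 genes tested over 27 libraries. JUP was 52.9, 47.7 and 54.8 CPM in SUM159 and higher by 1.52 ± 0.12 (adjusted p = 2.13e-10), and DSG2 was 343, 348 and 339 and higher by 0.62 ± 0.029 (adjusted p = 1.18e-14). DSP read 8.44, 5.71 and 4.24 CPM in SUM159, 16.2-fold lower than in MDA-MB-231, and PKP2 read 1.2, 1.44 and 1.26, 38.8-fold lower (adjusted p = 3.38e-14 and 3.1e-14). DSC2 had only 8 counts over the 3 SUM159 libraries against 784 in MDA-MB-231, a ratio of summed CPM of 89.5 with an exact 95% interval of 45.2 to 208 from counting error alone. PERP was lower by 1.72-fold, and PKP3 did not pass (-0.23 ± 0.13, adjusted p = 0.117).

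SUM159 wild type libraries differed greatly between the runs, and this bears on every comparison of the lines. Of 8 members, 0 were higher and 6 lower in run 2 than in run 1, against 28% and 27% of genes. DSP was 39.1, 36.6 and 37.3 CPM in run 1 and 8.44, 5.71 and 4.24 in run 2, 6.37-fold lower (adjusted p = 2.35e-10). PERP was 3.22-fold, PKP2 3.01-fold and JUP 1.51-fold lower (adjusted p = 4.09e-18, 8.52e-05 and 9.11e-06). DSC2 had 59 counts in run 1 and 8 in run 2, a ratio of summed CPM of 5.70 (exact interval 2.71 to 13.8), and DSC3, with 36 counts in run 1 and 0 in run 2, was at least 3.08-fold lower against 3 counts per library. DSG2 (-0.039 ± 0.026, interval -0.093 to 0.016) and PKP3 (0.093 ± 0.13, interval -0.17 to 0.36) did not pass. The keratins KRT5 and KRT6A and the basal factor TP63 were also lower in run 2, by -4.63 ± 0.75, -4.85 ± 0.67 and -2.88 ± 0.12. ZEB1 was at 84, 75.8 and 79 CPM in run 1 and 79.7, 76.9 and 77.5 in run 2. Whether culture, library preparation or sequencing differed between these libraries was not tested.

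The response to targeting was compared between the lines in 1 fit over 27 libraries, as the mean of the 2 targeted groups against No gRNA in MDA-MB-231 minus the same in SUM159. It was larger in MDA-MB-231 for 3 of 8 members and smaller for 1, against 12.7% and 12.9% of genes. PKP3 responded more by 1.08 ± 0.14 (adjusted p = 4e-06), DSG2 by 1.05 ± 0.031 (adjusted p = 1.18e-16) and DSC2 by 0.95 ± 0.22 (adjusted p = 0.00254). DSP did not differ detectably, at 0.069 ± 0.11 (interval -0.15 to 0.29, adjusted p = 0.702), and neither did PKP2 at 0.37 ± 0.28 (interval -0.22 to 0.95). JUP lay close to the threshold, at 0.27 ± 0.10 (interval 0.062 to 0.48, adjusted p = 0.0527), and passed it under several alternatives.

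PERP responded less in MDA-MB-231, by -0.15 ± 0.048 (adjusted p = 0.024), a call that was lost without MDA-MB-231 No gRNA replicate 1 (adjusted p = 0.0897) or without SUM159 No gRNA replicate 1 (0.102) or 3 (0.0577). It was also lost without the filter on low counts (0.053) and with only the compared groups in the fit (0.102). With wild type of the same line and run as the control, an alternative chosen after seeing the data, the difference for PERP turned to 0.74 (adjusted p = 2.41e-11), for JUP it became 1.66 and for PKP2 1.14, while PKP3 (1.15), DSG2 (1.21) and DSC2 (0.88) were close to their values against No gRNA. The difference for JUP passed with DESeq2's size factors (limma adjusted p = 0.0465), with DESeq2's own test (0.0379) and with only the compared groups in the fit (0.0364). It also passed without SUM159 All gRNA replicate 1 (0.30, adjusted p = 0.0308) or SUM159 gRNA 4 replicate 2 (0.31, adjusted p = 0.0183). Line and run cannot be told apart here.

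**Figure D5:**
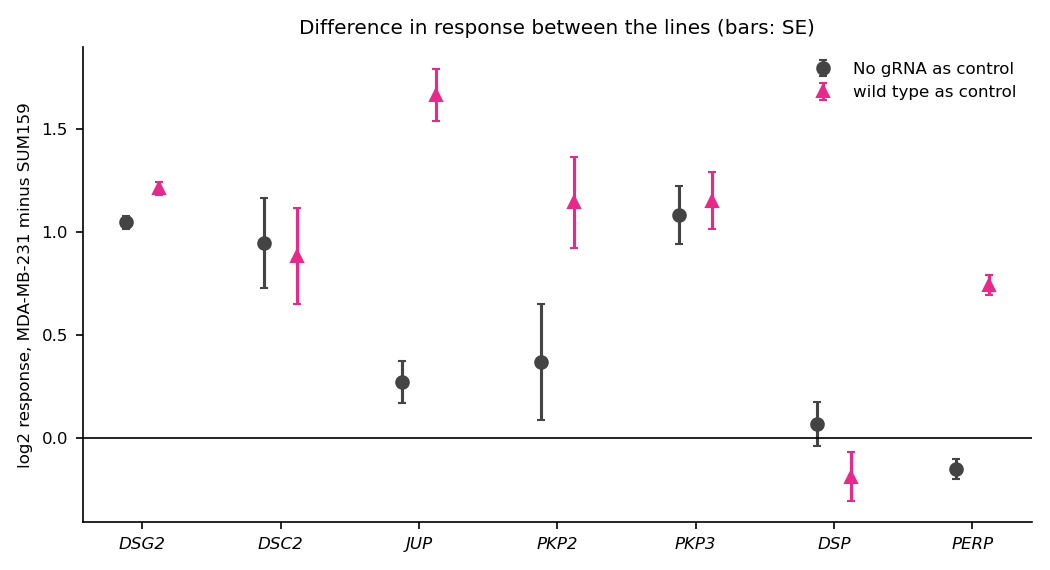
Difference between the lines in the log2 response to ZEB1 targeting (MDA-MB-231 minus SUM159, bars are standard errors) for 7 members, with No gRNA (circles) or wild type (triangles) as the control. PKP3, DSG2 and DSC2 lie near 1 with either control, whereas DSP and PERP change sign and JUP rises from 0.27 to 1.66.

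The other desmosome genes, a list of 9 of related function, were counted beside the members. DSC1, DSG1, DSG4 and CDSN (corneodesmosin) never exceeded 3.59 counts in a library, and 4 of the 9 genes were tested in SUM159 and 5 in MDA-MB-231. With All gRNA 0 of 4 passed in either direction by limma's moderated test (0 at an unadjusted p under 0.05), with gRNA 4 only PPL fell, in set 1 PPL rose and KAZN fell, and in set 2 PKP4, EVPL, KAZN and PNN rose. Over all genes tested, the moderated test called 5.93% higher and 4.89% lower with All gRNA, and 6.11% and 4.91% with gRNA 4. In set 1 these shares were 20.4% and 17.3%, and in set 2 27.3% and 25.1%. The median log2 fold changes of the listed genes were -0.075, 0.031, 0.24 and 0.64 in that order. In set 2, with 4 of 5 higher and 0 lower, they moved in the direction of the members, and no test compared the list with them.

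PPL (periplakin, a plakin of the cornified envelope and desmosomes) read 3.25, 5.32 and 3.63 CPM in SUM159 No gRNA and 1.2, 0.826 and 0.932 with gRNA 4, a difference of -2.00 ± 0.32 (adjusted p = 0.00168). In set 1 of MDA-MB-231 it went the other way, from 1.28, 1.4 and 1.59 to 3.41, 2.56 and 3.57 CPM (1.13 ± 0.22, adjusted p = 0.00187). EVPL (envoplakin, the partner of periplakin) read 20.9, 13.8 and 16 CPM in MDA-MB-231 No gRNA and 24.6, 26.7 and 25 in set 2 (0.64 ± 0.18, adjusted p = 0.0106). PKP4, a relative of the plakophilins found at adherens junctions and desmosomes, read 50.8, 99.4 and 68.1 and 163, 138 and 79.7 CPM in these groups and overlapped (0.83 ± 0.28, adjusted p = 0.0266). PNN (pinin, a desmosome-associated and mainly nuclear protein) changed by 1.16 ± 0.095 (adjusted p = 1.35e-06) and KAZN (kazrin, a periplakin partner) by 0.28 ± 0.11 (adjusted p = 0.047). The 4 genes that rose in set 2 had each fallen in MDA-MB-231 No gRNA cells against wild type, where PNN read 144, 128 and 136 CPM, against 51.4, 55.7 and 47.6 in No gRNA and 116, 99.8 and 127 in set 2.

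Of the 13 keratins listed, whose filaments desmosomes anchor, 11 were tested in SUM159 and 9 in MDA-MB-231. With All gRNA 4 rose and 1 fell, with gRNA 4 3 rose and 1 fell, in set 1 5 rose and 0 fell, and in set 2 5 rose and 2 fell. For scale, here and for the adherens junction genes below, the shares of all genes called higher and lower follow. They were 5.93% and 4.89% with All gRNA, 6.11% and 4.91% with gRNA 4, 20.4% and 17.3% in set 1, and 27.3% and 25.1% in set 2. KRT18, a keratin of simple epithelium, was the listed keratin that rose in all 4 comparisons, by 0.59 ± 0.048, 0.56 ± 0.048, 0.75 ± 0.03 and 1.57 ± 0.027. Against wild type, KRT18 was called lower by the moderated test in the No gRNA cells of both lines. KRT6A was called higher in those of SUM159. In SUM159 KRT6A, a keratin of stress and stratified epithelium, rose by 3.49 ± 0.15 with All gRNA (TREAT adjusted p = 5.47e-06), from 43.2, 52.8 and 51.8 to 519, 542 and 589.9 CPM, whereas it had no count in MDA-MB-231. Of 6 adherens junction genes, 5 were tested in SUM159, where CDH3 and CTNNB1 rose and CDH2 fell in both comparisons, and 6 in MDA-MB-231, where 3 rose and 0 fell in set 1 and 3 rose and 1 fell in set 2. SUM159 No gRNA cells were called lower than wild type in CTNNB1 and higher in CDH3. CDH1 (E-cadherin) was at or under 3 counts in SUM159 wild type and No gRNA libraries, read 0.193, 0.273 and 1.02 CPM in MDA-MB-231 No gRNA libraries, 18.9, 24.2 and 10.2 in those of set 1 and 2.71, 5.04 and 1.26 in those of set 2, and differed between libraries of a set more than DSP did.

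Lists that describe the state of the cells were counted in the same way. The shares of all genes called higher and lower were again 5.93% and 4.89% with All gRNA and 6.11% and 4.91% with gRNA 4. In set 1 they were 20.4% and 17.3%, and in set 2 27.3% and 25.1%, so a few calls in a short list are common there. Of 7 transcription factors that repress or promote epithelial genes, 2 rose and 1 fell in each SUM159 comparison, 3 rose and 1 fell in set 1, and 2 rose and 1 fell in set 2, ZEB1 being the one that fell each time. The genes that rose were not all of one kind: SNAI2, a repressor of epithelial genes, rose in all 4 comparisons and its relative SNAI1 in set 1, beside TP63, a factor of basal epithelium, in SUM159 and OVOL1, which favours the epithelial state, in MDA-MB-231. SUM159 No gRNA cells had been called lower than wild type in SNAI2, TP63 and ZEB2, and higher in SNAI1. Of the 4 mesenchymal genes VIM, FN1, ZEB1 and CDH2, 3 fell and 0 rose in both SUM159 comparisons and in set 1, while 2 fell and 2 rose (CDH2 and VIM) in set 2. ZEB1, the gene the guides target, is among those that fell each time. The others were CDH2 and FN1 in SUM159, VIM and FN1 in set 1, and FN1 alone in set 2. Against wild type, No gRNA cells were called higher in VIM and FN1 in SUM159, and higher in ZEB1 and FN1 and lower in VIM in MDA-MB-231. The 4 genes summed to 4864 to 5123 CPM in SUM159 wild type of run 1, 6227 to 6381 in No gRNA, 5077 to 5769 with gRNA 4 and 5247 to 5900 with All gRNA. In MDA-MB-231 these sums were 2755 to 2843, 3719 to 4030, 1936 to 2123 in set 1 and 2862 to 2911 in set 2. The 5 genes typically low in claudin-low cells (EPCAM, CLDN3, CLDN4, CLDN7 and CDH1) summed to 0.129 to 0.815 CPM in SUM159 No gRNA libraries and 1.51 to 6.51 with either guide condition, where 1 of 2 tested rose. In MDA-MB-231 they summed to 113 to 129 CPM without a guide and 514 to 548 in the targeted libraries and 4 of 5 rose in each set. The sum before targeting came mainly from CLDN4, at 66.3, 63.5 and 70.2 CPM in No gRNA libraries, and CLDN7, at 36.9, 37.2 and 42.3, whereas CLDN3 and CDH1 were near or under 1 CPM there. ESR1 and PGR were at or under 3 counts in all SUM159 libraries, and ERBB2 fell with gRNA 4 and was not called in the other 3 comparisons. The luminal list had 0 of 2 called in SUM159 and 2 of 3 higher in each MDA-MB-231 set, and the basal list 1 higher and 1 lower of 4 with All gRNA, 1 higher with gRNA 4, 1 higher of 3 in set 1 and 1 lower in set 2.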

How the data were processed

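Gene-level RNA-seq values of 27 libraries (9 groups of 3) were used, from 50 bp single-end reads. The values are estimated counts, which the authors made with Salmon and tximport and deposited as 1 table on GRCh38 gene models. They are of tximport's lengthScaledTPM kind, in which transcript lengths already enter. They need not be whole, and Salmon divides reads shared by similar genes. Columns were matched to samples by name. Members and gene lists were chosen with earlier results of these data known. The lists are other desmosome genes, keratins, adherens junction genes, regulators, and markers of luminal, basal, mesenchymal, claudin-low, triple negative and packaging cells. All 10 members were named. Other list genes were named with values where they passed the moderated test in a targeted comparison, markers and overlapping RNAs to define a list or a limit, and, for a member called by TREAT in all 4 comparisons, the 5 genes closest to it in log2 CPM.

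Genes under edgeR's filterByExpr minimum count of 10 were left out, counts were scaled by TMM factors, and limma voom (limma 3.58.1, edgeR 4.0.16, R 4.3.3) was fitted within the 12 libraries of a line, or over all 27 for comparisons of lines and runs. TREAT at a 2-fold change and the moderated test gave Benjamini-Hochberg adjusted p-values over all genes tested, with a threshold of 0.05. The estimated counts were rounded for DESeq2 1.42.0. The scripts were tested on simulated data. Positions, lengths and overlaps are from GENCODE v44, which held 56347 of 57165 genes, and promoter windows from RefSeq. The p-values are two-sided and measure the spread between the 3 libraries of a group, which the study calls individual clones. Same-numbered libraries did not deviate together (correlations of -0.083 to 0.058 in SUM159 and -0.052 to 0.040 in MDA-MB-231), so no pairing was used. Alternatives covered scaling, filtering, tool, control group, fitted libraries, the replicate block and leaving out each library.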

Additional observations from a re-analysis of the deposited data

Results flagged for a closer look

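The response to ZEB1 targeting differed between the lines in 4 members by the test of the difference itself (limma, moderated test over 27 libraries, MDA-MB-231 minus SUM159, each against its No gRNA cells). The log2 difference was 1.08 for PKP3, 1.05 for DSG2 and 0.95 for DSC2. It was -0.15 for PERP, the smallest of the 4, and its call depended on single No gRNA libraries. Line and run cannot be told apart in these differences. Groups of 3 libraries are too small for a test of single libraries that stand apart.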

How the results depend on the processing

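Of the counts of called members, 250 stayed within 1.5 times the reported count and 8 did not. TREAT at a 1.2-fold change called 3 members with All gRNA, 4 with gRNA 4, 7 in set 1 and 6 in set 2. Over all genes (15147 in SUM159, 15721 in MDA-MB-231) it called 430, 478 and 2296 in the first 3 of these, and at most 4814 in set 2. The moderated test with an absolute log2 change over 1 called 2 members in each SUM159 comparison. It called 368 of all genes with All gRNA and 403 with gRNA 4. TREAT with both sets as 1 group called 2 members, against 4 in set 1, and with wild type as control 5 in set 2, against 3. With both sets as 1 group it called 132 of all genes, and the number with wild type as control is given below. With the replicate block the moderated test called 4, 4, 7 and 7 members (All gRNA, gRNA 4, set 1, set 2) and TREAT 1, 1, 4 and 2, the lost call being DSC2 in set 2. Over all genes the block gave 1427, 1450, 5775 and 8129 moderated calls, and 47, 54 and 217 TREAT calls in the first 3 comparisons. The replicate numbers mark no known pairing, and the block changed no other member count of these 4 comparisons. Of the member values, 1350 kept direction and side of the threshold, 16 newly passed it, 7 no longer did and 25 changed sign. With wild type as control the changes of sign were PERP to -0.089 with All gRNA and -0.029 with gRNA 4, PKP2 to -0.56 and -0.88, DSC3 to -0.75 with gRNA 4, and in the difference between lines PERP to 0.74, DSP to -0.19 and DSC3 to 1.63. Library totals turned DSG2 to -0.0085 with gRNA 4 and to 0.0079 between runs (0.019 with upper quartile scaling), and upper quartile scaling turned PKP3 in SUM159 No gRNA against wild type to 0.044. The cause of these shifts was not tested.

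Leaving out 1 library changed the sign of 7 member values, among them PKP2 in All gRNA against gRNA 4, reported as 0.32. The ranges were -0.61 to 0.89 for DSC3 with gRNA 4 and -0.52 to 0.097 between lines. For All gRNA against gRNA 4 they were -0.0074 to 0.11 for DSP, -0.057 to 0.11 for JUP and -0.039 to 0.60 for PKP2. For PKP3 in No gRNA against wild type they were -0.070 to 0.037 in MDA-MB-231 and -0.10 to 0.064 in SUM159. DSC2 in SUM159 No gRNA against wild type passed without No gRNA replicate 2 (0.79, limma adjusted p = 0.0434), and PKP3 between lines with library totals (-0.30) and DESeq2 (-0.25). Over all genes, the moderated calls with wild type as control numbered 7384 against 1639 (All gRNA), 7096 against 1668 (gRNA 4), 9348 against 5935 (set 1), 5709 against 8235 (set 2) and 7397 against 4428 (difference between lines), and those with both sets as 1 group 2990 against 5935 and 8235. For All gRNA against gRNA 4, they numbered 143, with DESeq2 355, with the replicate block 68 and with 27 libraries in the fit 330. Calls by TREAT numbered 60 with All gRNA (47 to 430 over these alternatives), 59 with gRNA 4 (54 to 478), 231 in set 1 (132 to 2296) and 651 in set 2 (132 to 4814, and 227 with wild type as control, of which 84.6% were higher against 41.9%). Without the filter on low counts the median of all genes shifted by 0.16 in SUM159 No gRNA against wild type, 0.34 between runs and 0.16 between lines. DSC2 and PKP2 in SUM159 and DSC3 rest on few counts, which limits what could be detected there.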
